A study of Homo sapiens and Mus musculus with 30 samples.

Results

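HEK293A is a human embryonic kidney line. Its total RNA was measured with LIN28B present at 4 rising levels, X1, X2, X3 and X4, and at X0, which the series describes as the LIN28B knockout. These 5 libraries were taken out of 30 in the series by their labels, and the question put to them was which RNAs step between X0 and every level with LIN28B, as against RNAs that follow the amount of LIN28B. The cells grew in DMEM with 10% serum, and per the labels expression was induced with doxycycline at 10 ng/ml. The labels do not say whether X0 cells also received doxycycline, how the 4 levels were set or how many clones the lines represent. Each level has 1 library of polyadenylated RNA, so X0 rests on a single library without a replicate. The levels X1 to X4, which differ in LIN28B, were treated as replicates of one another. A gene was called a step gene where X1 to X4 all lay on one side of X0, the level nearest to X0 was at least 0.5 away on the scale of log2(RPKM + 0.5), a distance called the gap here, and that gap exceeded the range spanned by X1 to X4. RPKM scales the reads of a gene by its length in kilobases and by the library's reads in units of 1e6. Of 11342 genes listed, 34 met this rule, 17 above X0 and 17 below.

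LIN28B is an RNA-binding protein of embryonic and cancer cells that binds precursors of let-7 microRNAs and keeps them from being processed by Dicer. Mature let-7 is loaded into Argonaute proteins and lowers messenger RNAs that pair with its seed, the bases that lead target pairing. LIN28B also binds many messenger RNAs directly. Classical let-7 targets include HMGA2, an architectural chromatin protein of embryonic cells, IGF2BP1, an RNA-binding protein that stabilises fetal messages, and DICER1 itself.

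The let-7 family is shown because several step genes are known targets of its seed. RefSeq (GRCh38.p14) held 9 distinct mature sequences of the family in the table used, and all 9 share the seed in bases 2 to 8, printed in capitals, while they differ outside it.
let-7a: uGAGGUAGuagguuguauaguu
let-7b: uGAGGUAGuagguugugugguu
let-7e: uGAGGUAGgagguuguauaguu
let-7g: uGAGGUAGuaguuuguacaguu
miR-98: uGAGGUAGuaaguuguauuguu
Among these lines, let-7a is the form that was transfected into X0 cells at 10 nM in a separate pair of libraries of the series. The small RNA libraries gave no usable reading of the family: the 12 let-7 and miR-98 features held 0 of 150841 counts at X3 and 0 of 125904 counts in the knockout in untransfected total small RNA, which allows shares of up to 0.00199% and 0.00238%. After let-7 transfection the same features held 2 of 86951 counts at X3 and 4 of 73083 counts in the knockout (0.0023%, exact binomial 95% interval 0.000279 to 0.00831%, and 0.00547%, 0.00149 to 0.014%). A difference in mature let-7 between X3 and the knockout was therefore not detectable in these counts. Why they stayed this low after transfection was not tested.

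The 5 total RNA libraries rest on 38.0 to 56.6 M reads (M, 1e6), and the 5 polysome libraries of the same levels on 9.15 to 14.7 M. Genes under 1 RPKM in any of the 5 total RNA libraries are absent from the table. Of 13 markers of the HEK293 line 10 are listed, among them the intermediate filament genes VIM and KRT18 and the kidney factor EYA1, and their summed level was 276 to 300 RPKM at X1 to X4, against 334 RPKM at X0. Of the 10, KRT18, NEFL, LHX1 and HOXC10 lay above X0 at all 4 levels and VIM, CDH2, EYA1 and HOXD10 below, and VIM, at 126, 127, 120 and 104 RPKM at X1 to X4, against 171 RPKM at X0, differed by the most RPKM. Of 10 markers of pluripotent or embryonal carcinoma cells 2 are listed (DNMT3B and SALL4, together 18 to 19.1 RPKM at X1 to X4, against 16.9 RPKM at X0), and 0 of the markers of hepatocytes, fibroblasts, blood or endothelial cells are. Libraries spread apart with the level: the SD over genes of the log2 difference from X0 was 0.151 for X1 and 0.165 for X2, then 0.213 for X3 and 0.255 for X4, with medians between -0.02 and 0.02.

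LIN28B RNA stood at 23.0, 33.4, 81.2 and 208 RPKM at X1, X2, X3 and X4, against 3.6 RPKM at X0, where 799 reads were still assigned to the gene labelled as knocked out. It climbed at each level, by 3.15 on the log2 scale between X1 and X4, which exceeds its gap of 2.52 to X0, so LIN28B itself was graded and is no step gene. The let-7a transfected X0 library held 1.41 RPKM. In bulk RNA such as this, fewer cells with a transcript and less of it per cell cannot be told apart. HIST1H2BJ, a histone H2B gene, had the widest gap of all (3.82) at 36.4, 56.3, 159 and 365 RPKM at X1 to X4, against 2.12 RPKM at X0. Its range over X1 to X4, 3.31, was nearly as wide as its gap and wider than that of LIN28B, so it met the step rule while climbing at every level. H2B genes share long stretches of sequence, and reads of HIST1H2BJ cannot be told from those of its paralogs with certainty. The files also do not tell whether reads of LIN28B and HIST1H2BJ come from the chromosomal genes or from an introduced construct, so the value of HIST1H2BJ cannot be read as that of the histone gene alone.

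All 4 levels lay above X0 for 2929 genes (25.8% of all genes) and below X0 for 2587 genes (22.8%), so lying on one side of the single X0 library is common. Which side was commoner depended on the scaling. Trimmed-mean centring gave 2673 above and 3066 below, and quantile normalization 2695 and 2987. A gap of 0.5 that also exceeded the range was rare, at 0.150% of genes above and 0.150% below. Without the condition on the range 23 genes lay above and 18 below. The 7 genes so added were graded: LIN28B, CDKN1A, TP53I3, NOTCH3, TNNT1 and RP11-791G15.2 above X0 and CLU below it. CLU, the secreted chaperone clusterin, was at 112, 105, 83.8 and 64.0 RPKM at X1 to X4, against 189 RPKM at X0, and NOTCH3, a Notch receptor, at 2.77, 3.09, 4.69 and 6.01 RPKM, against 1.54 RPKM at X0. Both were farthest from X0 at X4. In a limma fit of the mean of X1 to X4 against X0, with p-values adjusted over all genes by the Benjamini-Hochberg method, 2 genes rose (0.0176% of genes) and 1 fell (0.00882%): HMGA2, CGA and MT-RNR1, all of them step genes. The fit has 3 residual degrees of freedom, takes the spread from X1 to X4 and assumes that X0 would vary alike, and an exact permutation of 1 library against 4 cannot go below p = 0.2. The count of calls moved with the libraries used, from 0 without X3 (894 at an unadjusted p under 0.05) to 95 without X4 (23 without X1 and 59 without X2), while 1114 genes were at an unadjusted p under 0.05 with all 5 libraries. HIST1H2BJ, E2F5, IGF2BP1, ARID3B, STMN3, GPRC5A, DDIT4, CD44 and MT-RNR2 missed the threshold with all 5 libraries and without X3, and passed it without X1, without X2 and without X4.

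**Figure D1:**
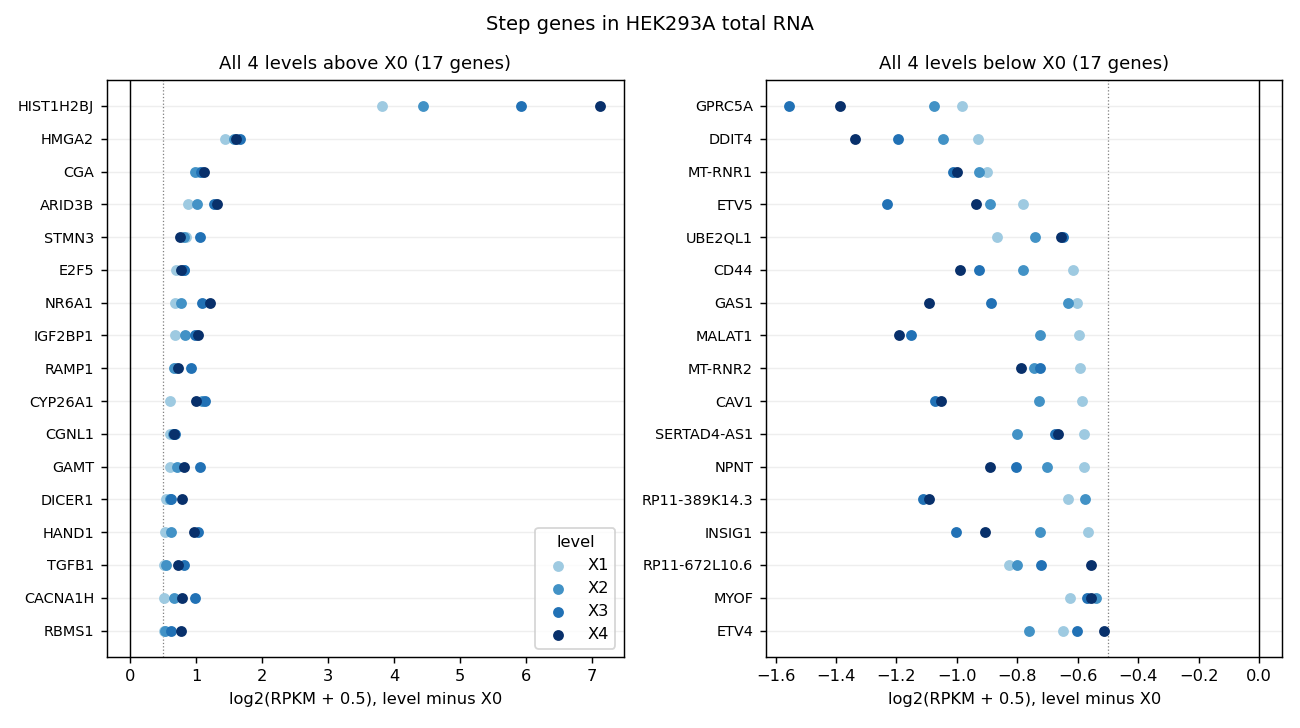
Step genes in HEK293A total RNA: the log2(RPKM + 0.5) of each level minus X0 on the x axis, with 1 point for each of X1 (palest) to X4 (darkest) and the dotted line at the gap of 0.5. HMGA2, CGA and MT-RNR1 show tight clusters far from X0, while HIST1H2BJ spreads between 3.82 at X1 and more than 7 at X4.

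**Figure D2:**
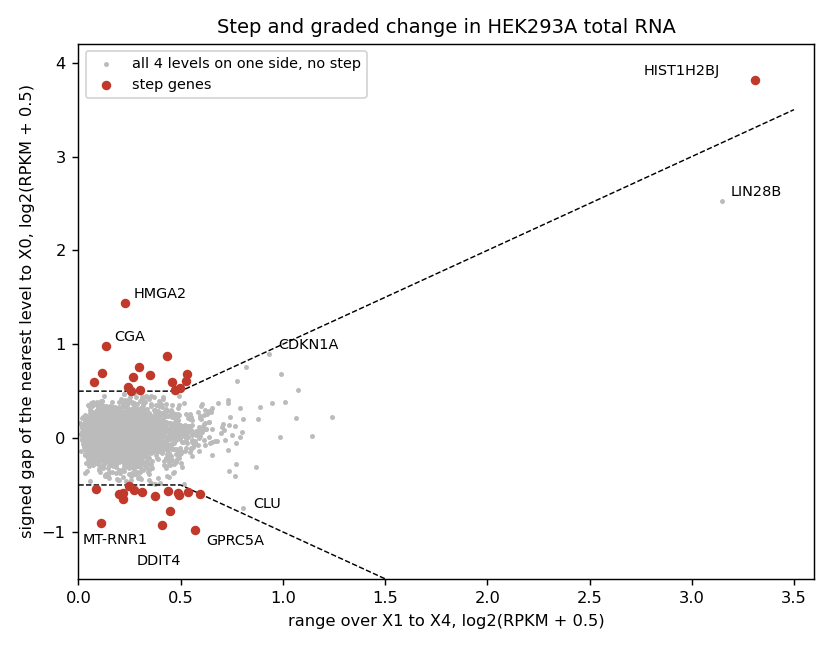
Signed gap to X0 against the range over X1 to X4, both on the log2(RPKM + 0.5) scale, for all genes whose 4 levels lie on one side of X0. The dashed lines bound the 34 step genes (red); LIN28B, CDKN1A and CLU fall on the graded side of the lines.

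A group of 6 of the 17 genes above X0 belongs to a list of 65 published let-7 targets. HMGA2 was at 16.7, 18.5, 19.7 and 18.8 RPKM at X1, X2, X3 and X4, against 5.87 RPKM at X0 (3507 reads). The 4 levels with LIN28B differed little among themselves, 18.4 ± 1.23 RPKM (SD, n = 4), and none came near X0. HMGA2 (ENSG00000149948.9) rose 2.97-fold (log2 difference 1.57 ± 0.0986 SE, limma adjusted p = 0.00111; 0.0885 without X3, the highest over 13 alternatives, the other 12 of which called it), and 91.6% of that log2 difference was already there at X1. E2F5, a transcription factor of the E2F family, had the same shape at a lower level, with 7.25, 7.91, 7.89 and 7.61 RPKM at X1 to X4, against 4.29 RPKM at X0 (log2 difference 0.77 ± 0.0927 SE, limma adjusted p = 0.0568, short of the threshold). Its range over X1 to X4 was 0.12 and X4 was not its highest level.

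The other let-7 targets among the step genes had their highest level at X4. ARID3B, an AT-rich DNA-binding factor, was at 4.45, 4.95, 6.03 and 6.18 RPKM at X1 to X4, against 2.2 RPKM at X0. NR6A1, the orphan nuclear receptor GCNF of germ cells and early embryos, was at 9.27, 9.93, 12.5 and 13.6 RPKM, against 5.61 RPKM at X0, and its range of 0.53, beside a gap of 0.68, was the widest of the 6. IGF2BP1 was at 44.1, 48.9, 54.6 and 56.4 RPKM at X1 to X4, against 27.4 RPKM at X0, with log2 difference 0.88 ± 0.124 SE (limma adjusted p = 0.101). DICER1, the enzyme that makes let-7 and is itself a target, was at 12.7, 13.3, 13.4 and 15.1 RPKM, against 8.56 RPKM at X0. For each of these 4 genes every level with LIN28B exceeded X0, and none passed the limma threshold. Of the paralogs of IGF2BP1, IGF2BP2 was at 30.9 to 35.7 RPKM at X1 to X4, against 27.3 RPKM at X0, with a gap of 0.18, and IGF2BP3 straddled X0 (10.9 to 12.5 RPKM at X1 to X4, against 11 RPKM at X0). LIN28A is not among the listed genes.

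Over the whole let-7 target list, 50 of 65 genes were listed; 35 of the 50 (70.0%) lay above X0 at all 4 levels and 2 (4.0%) below, with a median log2 difference of 0.19, beside 0.0046 over all genes. Of the 50, HMGA2 alone was called by limma. With a linear term for the rank of the level added to the fit, 11 of the 50 were called higher and 0 lower, beside 0.564% and 0.353% of all genes; these were HMGA2, IGF2BP1, ARID3B, NR6A1, E2F5 and DICER1 and, short of the step rule, ARID3A, HIC2, SLC5A6, TMEM2 and RRM2. RRM2, the small subunit of ribonucleotide reductase, came nearest to a pure step among the last 5, at 47.4, 49.0, 46.0 and 47.0 RPKM at X1 to X4, against 35.2 RPKM at X0, a gap of 0.38 with a range of 0.09. SLC5A6, the biotin and pantothenate transporter, was at 20.9, 21.7, 22.3 and 19 RPKM, against 13.6 RPKM at X0, with its lowest level at X4. The list was drawn up with earlier results of these data known.

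The X0 cells transfected with let-7a gave 1 total RNA library, which shares its untransfected counterpart with every comparison above, so its values are only set beside the others. HMGA2 was at 0.737 RPKM there, E2F5 at 1.14, IGF2BP1 at 14.0, DICER1 at 6.6, NR6A1 at 4.49 and ARID3B at 2.2 RPKM. HMGA2, E2F5, IGF2BP1, DICER1 and NR6A1 were thus under their X0 level in that library, and ARID3B equalled it. Among the genes below X0, DDIT4 was at 70.6 RPKM in the let-7a library, against 9.19 RPKM at X0, and INSIG1 at 111 RPKM, against 29.9 RPKM at X0. CAV1, at 13.8 against 23.9 RPKM, and UBE2QL1, at 1.35 against 5.05 RPKM, went the other way. The let-7a library lay over X0 for 10 of these 17 genes and under it for 7. For the 17 genes above X0 it lay under X0 for 11 and over it for 6, beside 5687 and 5655 of all genes. No library is labelled as a control transfection.

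**Figure D3:**
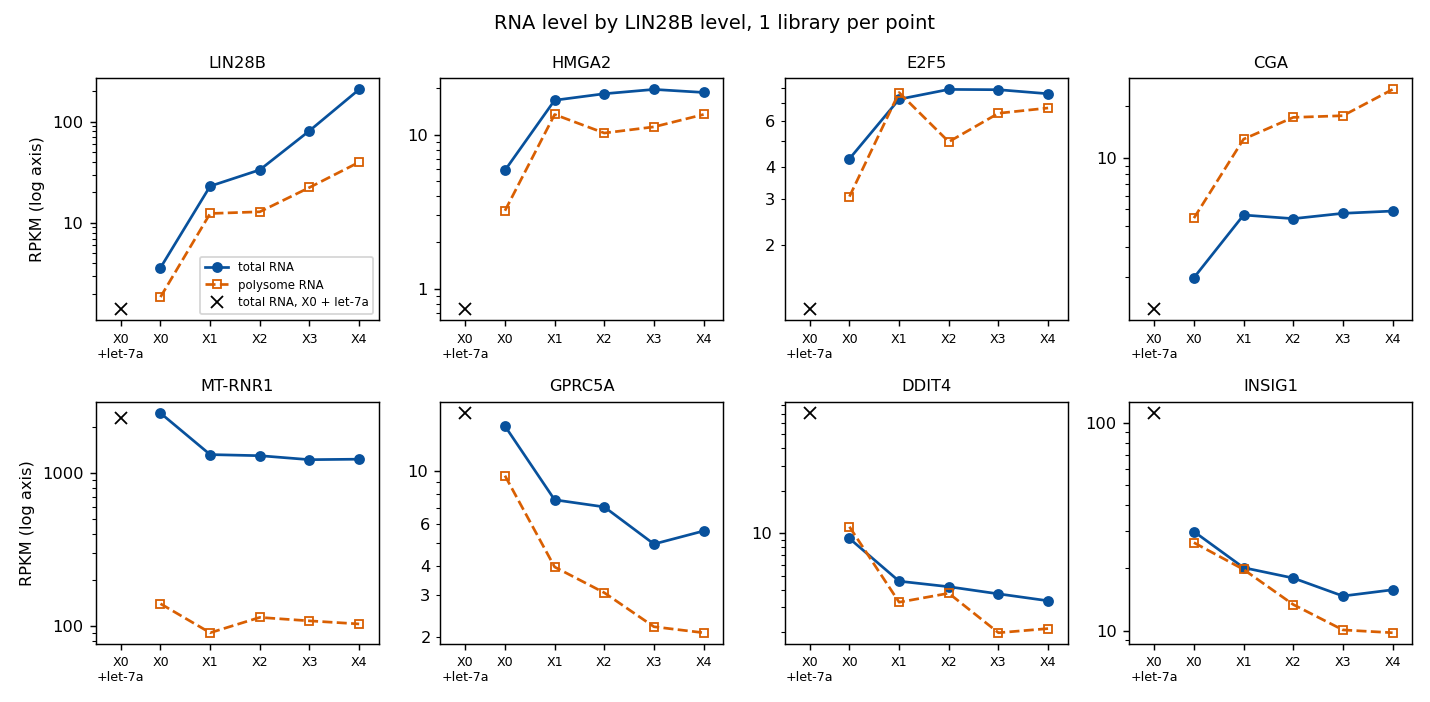
RPKM (log axis) of 8 genes by LIN28B level, with 1 library per point: filled circles are total RNA, open squares polysome RNA and the cross the let-7a transfected X0 total RNA. HMGA2, E2F5, CGA and MT-RNR1 turn between X0 and X1 and then stay level in total RNA, whereas LIN28B climbs at every level.

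CGA encodes the alpha subunit shared by the glycoprotein hormones and is a classical cAMP-induced gene of placenta and pituitary. It was at 4.63, 4.41, 4.73 and 4.88 RPKM at X1 to X4, against 1.99 RPKM at X0, where 57 reads stood behind the value. The levels with LIN28B averaged 4.66 ± 0.2 RPKM (SD, n = 4), and the first of them held 99.2% of the mean log2 difference. CGA (ENSG00000135346.4) rose 2.07-fold (log2 difference 1.05 ± 0.0996 SE, limma adjusted p = 0.0112). Over 12 alternatives its adjusted p ran between 0.000182 without X2 and 0.292 without X3, and edgeR did not call it either. In the let-7a library CGA was at 1.3 RPKM. Its promoter carries a pair of cAMP response elements, shown here because CGA is 1 of 3 genes called and this pair is its textbook control region. RefSeq's GRCh38.p14 sequence of chr6:87095208-87095263, minus strand, lies 157 to 102 bases before the annotated gene start, with both TGACGTCA matches in capitals.
CGA: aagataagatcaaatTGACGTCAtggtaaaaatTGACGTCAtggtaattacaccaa
TGACGTCA, which reads the same on both strands, occurs in 1.85% of the 35116 promoter windows of 300 bases in the table. Promoters were at hand for 19 of the 34 step genes, and CGA and NR6A1 hold the motif.

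Other genes above X0 came from several families and none of them passed the limma threshold. STMN3, a tubulin-binding stathmin of neurons, was at 11.5, 11.3, 13.3 and 10.8 RPKM at X1 to X4, against 6.16 RPKM at X0. GAMT, which makes creatine, was at 25.1, 27.3, 34.7 and 29.1 RPKM, against 16.4 RPKM at X0. Both had their highest value at X3. TGFB1, a cytokine of the TGF-beta family, was at 12, 12.2, 14.9 and 14.0 RPKM, against 8.26 RPKM at X0, and RBMS1, an RNA-binding protein, at 5.6, 5.71, 6.08 and 6.8 RPKM, against 3.8 RPKM at X0. A mean of under 5 RPKM over the 5 libraries was found for 7 of the 17: CGA, ARID3B, RAMP1, CYP26A1, CGNL1, HAND1 and CACNA1H. CYP26A1, which breaks down retinoic acid, was at 2.46, 3.65, 3.77 and 3.37 RPKM at X1 to X4, against 1.45 RPKM at X0. CGNL1, a junction protein, was at 3.2, 3.3, 3.4 and 3.35 RPKM, against 1.94 RPKM at X0, the tightest of the 17 with a range of 0.08. HAND1, a transcription factor of heart and trophoblast, was at 1.77, 1.91, 2.7 and 2.58 RPKM, against 1.07 RPKM at X0 (75 reads). RAMP1, which pairs with the calcitonin receptor-like receptor, was at 2.13, 2.09, 2.62 and 2.23 RPKM, against 1.15 RPKM at X0 (57 reads), and the calcium channel gene CACNA1H at 3.0, 3.39, 4.36 and 3.7 RPKM, against 1.95 RPKM at X0.

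The most abundant step genes were the mitochondrial ribosomal RNAs, which were lower with LIN28B. MT-RNR1, the small-subunit RNA, was at 1330, 1307, 1231 and 1240 RPKM at X1 to X4, against 2483 RPKM at X0, and fell by 0.96 on the log2 scale (SE 0.0812, limma adjusted p = 0.00662; ENSG00000211459.2). The 4 levels averaged 1277 ± 48.6 RPKM (SD, n = 4). MT-RNR2, the large-subunit RNA, was at 3822, 3434, 3481 and 3336 RPKM, against 5758 RPKM at X0 (log2 difference -0.71 ± 0.0972 SE, limma adjusted p = 0.085). The messenger RNAs of the same genome did not share this shape: of 15 mitochondrially encoded genes, 2 (13.3%) lay below X0 at all levels, both of them ribosomal RNAs, and 5 (33.3%) lay above, led by MT-ND3 at 809, 878, 1112 and 877 RPKM, against 666 RPKM at X0. In the let-7a library MT-RNR1 was at 2318 RPKM and MT-RNR2 at 7759 RPKM. The libraries were made by polyA selection. MT-RNR1 was not called after quantile normalization (limma adjusted p = 0.242, the highest of 13 alternatives) or without X3 (0.173).

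Several of the other step genes below X0 encode cell surface or membrane proteins, or a ligand of such proteins. GPRC5A, an orphan receptor induced by retinoic acid, was at 7.57, 7.07, 4.94 and 5.6 RPKM at X1 to X4, against 15.5 RPKM at X0 (log2 difference -1.25 ± 0.194 SE, limma adjusted p = 0.14). CD44, the hyaluronan receptor, was at 5.4, 4.76, 4.26 and 4.06 RPKM, against 8.55 RPKM at X0. CAV1, the coat protein of caveolae, was at 15.8, 14.2, 11.1 and 11.3 RPKM, against 23.9 RPKM at X0. In these 3 genes X1 was the level nearest to X0. GAS1, a co-receptor for Hedgehog ligands, was at 6.83, 6.67, 5.51 and 4.72 RPKM, against 10.6 RPKM at X0. The integrin ligand NPNT (2.95 to 3.78 RPKM at X1 to X4, against 5.88 RPKM at X0) and the membrane repair protein MYOF (1.33 to 1.45 RPKM, against 2.33 RPKM at X0) completed the group, and MYOF varied least, with a range of 0.09. The list of adhesion and surface receptor genes as a whole was not one-sided, with 20 of 58 below X0 (34.5%) and 17 above (29.3%) and a median log2 difference of 0.01 (-0.01 after centring).

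DDIT4, also called REDD1, inhibits mTORC1 and is induced by amino acid shortage, hypoxia and glucocorticoids. Its RNA was at 4.59, 4.19, 3.73 and 3.33 RPKM at X1 to X4, against 9.19 RPKM at X0, with its lowest value at X4 (log2 difference -1.13 ± 0.147 SE, limma adjusted p = 0.085). INSIG1, the sterol sensor that holds SREBP in the endoplasmic reticulum, was at 20.1, 17.9, 14.7 and 15.7 RPKM, against 29.9 RPKM at X0. Both belong to lists that lay mostly below X0 in total RNA. Of 35 listed genes of the ATF4 and amino acid stress list 21 lay below at all 4 levels and 6 (17.1%) above, beside 22.8% and 25.8% of all genes, with a median log2 difference of -0.10. Asparagine synthetase, ASNS, was at 24.8, 22.9, 20.1 and 19.4 RPKM, against 33.9 RPKM at X0, and the cystine transporter SLC7A11 at 2.2, 2.01, 1.58 and 1.65 RPKM, against 3.3 RPKM at X0. Of 23 listed genes of cholesterol synthesis and uptake 17 (73.9%) lay below X0 and 2 (8.70%) above, with a median of -0.23. HMGCS1, of the cholesterol list, was at 36.1, 34.2, 28.2 and 30.9 RPKM, against 44.3 RPKM at X0. In polysome RNA it lay above X0 instead, at 47.4, 39.2, 43.4 and 48.5 RPKM, against 34.5 RPKM. There the cholesterol list had 5 genes above X0 at all 4 levels and 11 below. No member of either list was called by limma, beside 0.00882% of all genes called lower. With the linear term 3 members of the ATF4 list and 2 of the cholesterol list were called lower, beside 0.353% of all genes.

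ETV4 and ETV5, a pair of ETS transcription factors that ERK signalling induces, met the step rule below X0 at low levels. ETV5 was at 1.57, 1.42, 1.01 and 1.36 RPKM at X1 to X4, against 3.05 RPKM at X0, and ETV4 at 1.7, 1.53, 1.77 and 1.92 RPKM, against 2.95 RPKM at X0. For both the let-7a library lay on the far side of X0, at 7.07 RPKM for ETV5 and 4.57 RPKM for ETV4. A list of 15 ERK-induced factors and feedback inhibitors was written after these values were seen; 9 are listed, of which ETV4, ETV5, SPRY1, SPRY2 and SPRED1 lay below X0, DUSP5 lay above it and DUSP4, FOSL1 and SPRED2 straddled it.

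Among noncoding RNAs, the nuclear transcript MALAT1 was at 7.94, 7.22, 5.24 and 5.09 RPKM at X1 to X4, against 12.3 RPKM at X0. NEAT1, the scaffold of nuclear paraspeckles, was at 9.95, 9.71, 7.66 and 7.48 RPKM, against 13.5 RPKM at X0, with a gap of 0.42 that missed the step rule. SERTAD4-AS1, RP11-389K14.3, RP11-672L10.6 and UBE2QL1 made up the rest of the 17, at means of under 5 RPKM. As ratios of RPKM + 0.5 they were at 0.554 to 0.624 times X0. RP11-672L10.6 rested on 47 reads at X0. In UBE2QL1, a gene of the ubiquitin-conjugating enzyme family, X1 was the level farthest from X0: it was at 2.54, 2.82, 3.03 and 3.02 RPKM at X1 to X4, against 5.05 RPKM at X0. Overlapping and antisense genes cannot be separated, since the strand setting of the counting is not given.

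**Figure D4:**
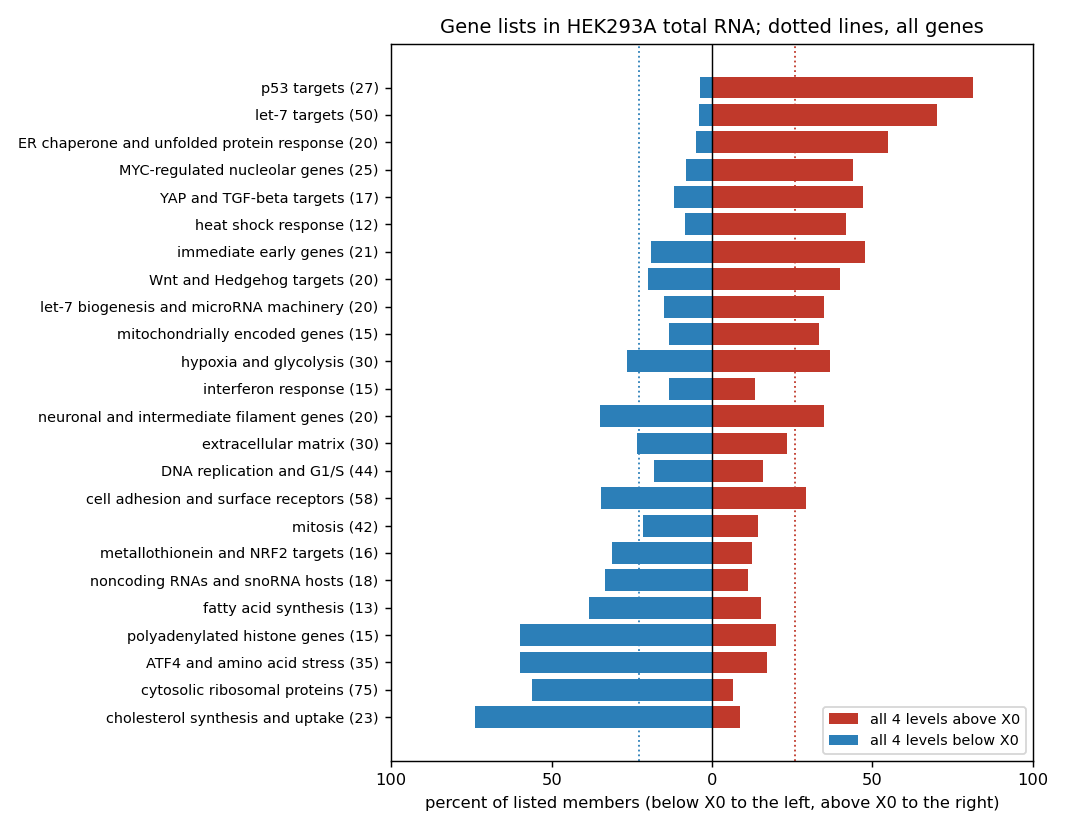
Percent of the listed members of each gene list (number listed in brackets) whose 4 levels all lay above X0 (red, right) or all below X0 (blue, left), with dotted lines at 25.8% and 22.8% for all genes. The p53 and let-7 target lists reach furthest right, the cholesterol list furthest left.

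Genes that p53 induces, a list of growth arrest and stress genes, lay mostly above X0 in total RNA. Of 27 listed members 22 (81.5%) lay above X0 at all 4 levels and 1 (3.70%) below, with a median log2 difference of 0.33, yet it holds 0 step genes. CDKN1A, the p21 inhibitor of cyclin-dependent kinases, was at 13.2, 13.3, 16.7 and 25.6 RPKM at X1 to X4, against 6.88 RPKM at X0, and its range of 0.93 just exceeded its gap of 0.89. TP53I3, a p53-induced quinone oxidoreductase, was at 2.16, 2.48, 2.61 and 4.2 RPKM, against 1.07 RPKM at X0. In both the highest value was that of X4. PHLDA3, an inhibitor of AKT, was flatter at 13.6, 13.4, 15.4 and 15.5 RPKM, against 10.2 RPKM at X0. None of these members passed the limma threshold; CDKN1A, TP53I3 and PHLDA3 were called with the linear term, beside 0.564% of all genes called higher.

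Cytosolic ribosomal protein genes lay close to X0 and mostly below it in total RNA. Of 75 listed, 42 (56.0%) lay below X0 at all 4 levels and 5 (6.67%) above, with a median log2 difference of -0.08, and no member had a gap as wide as 0.25. Centring the libraries on their trimmed means left 3 above. Endoplasmic reticulum chaperones lay above X0 in 11 of 20 genes (55.0%) and below in 1 (3 after centring), with a median of 0.08. The mitosis list had 6 of 42 genes above (14.3%) and 9 below (21.4%), and the DNA replication list 7 of 44 above (15.9%) and 8 below (18.2%), with the shares below near the 22.8% of all genes and those above under the 25.8%. Polyadenylated histone genes lay mostly below, 9 of 15, and 3 above, with H1F0 at 22, 19, 17 and 21.2 RPKM at X1 to X4, against 30.7 RPKM at X0. Across the 24 lists the median log2 difference ran between -0.23 and 0.33, and the members were not tested as sets.

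The median gene length was 5922 bp for those above X0 and 3650 bp for those below, beside 4661 bp over all genes, and the median mean level 6.99 and 5.01 RPKM, beside 8.48 RPKM. Of 34, 19 had a mean of at least 5 RPKM. At X1, the lowest level with LIN28B, 63.6 to 119% of the mean log2 difference was already reached, with a median of 80.4%, a quantity that the rule itself keeps high. X4 lay farther from X0 than X1 in 29 of the 34 genes. Among all genes with the 4 levels on one side of X0, X4 lay farther than X1 in 3840 and nearer in 1676. Just inside the gap of 0.5 lay RBMS1 (0.50) and CACNA1H (0.51) above and ETV4 (-0.51) and MYOF (-0.54) below, and just outside lay RGS14 (0.48) and CA2 (0.48) above and SLC7A11 (-0.49) and BMP5 (-0.48) below.

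Polysome RNA, taken from ribosome-bound material at the same 5 levels, was not used to choose the step genes. Whether it came from the same cultures is not given. In that fraction 12 of the 17 genes above X0 lay above it again at all 4 levels, beside 26.2% of all genes, and 0 lay below, while 16 of the 17 genes below X0 lay below it again, beside 44.9%, and 0 lay above. The mean of X1 to X4 kept the direction of total RNA in all 34 genes, with median log2 differences of 0.75 and -0.83, beside -0.18 over all genes. Over all 11342 genes, that polysome mean lay above X0 for 4591 and below it for 6751, so lying below was the commoner direction. The gene lists did not all keep their side of total RNA. Of 75 cytosolic ribosomal protein genes, 43 lay above X0 at all 4 levels in polysome RNA and 11 below, beside 26.2% and 44.9% of all genes. The p53 list had 10 of 27 above and 9 below. The let-7 target list had 20 of 50 above and 11 below, and the ATF4 list 4 of 35 above and 22 below. No gene passed the limma threshold in polysome RNA (0.00% of genes; 1078 at an unadjusted p under 0.05), where edgeR also called 0 and DESeq2 called LIN28B, HMGA2 and CGA. The spread between levels was wider than in total RNA, with an SD over genes of 0.884 for X4 minus X0.

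HMGA2 was at 13.5, 10.3, 11.2 and 13.5 RPKM in polysome RNA at X1 to X4, against 3.21 RPKM at X0 (log2 difference 1.76 ± 0.339 SE). CGA was at 12.9, 17.2, 17.6 and 25.1 RPKM, against 4.44 RPKM at X0, and there climbed on to X4. DDIT4 was at 3.26, 3.77, 1.98 and 2.12 RPKM, against 11.1 RPKM at X0, and GAS1 at 5.15, 6.07, 2.94 and 2.06 RPKM, against 13.1 RPKM at X0; both log2 differences, -1.86 and -1.68, were larger than in total RNA, a comparison that was not tested. MT-RNR1 was at 90.8, 114, 109 and 104 RPKM, against 141 RPKM at X0, and MT-RNR2 straddled X0. E2F5 was at 7.69, 4.98, 6.41 and 6.71 RPKM, against 3.07 RPKM at X0, and DICER1 at 7.1, 6.55, 8.87 and 12.2 RPKM, against 4.12 RPKM at X0. IGF2BP1 was at 19.1, 20.5, 16.4 and 13.5 RPKM, against 11.8 RPKM at X0, so its highest polysome level was that of X2, while its total RNA was highest at X4. GPRC5A was at 3.95, 3.08, 2.22 and 2.09 RPKM, against 9.57 RPKM at X0, and UBE2QL1 at 2.17, 1.75, 1.17 and 1.52 RPKM, against 4.62 RPKM at X0. TGFB1, STMN3, GAMT, CACNA1H and RAMP1 were the 5 genes above X0 in total RNA that straddled it in polysome RNA; TGFB1 was at 6.41, 7.49, 5.08 and 3.99 RPKM, against 5.54 RPKM at X0.

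**Figure D5:**
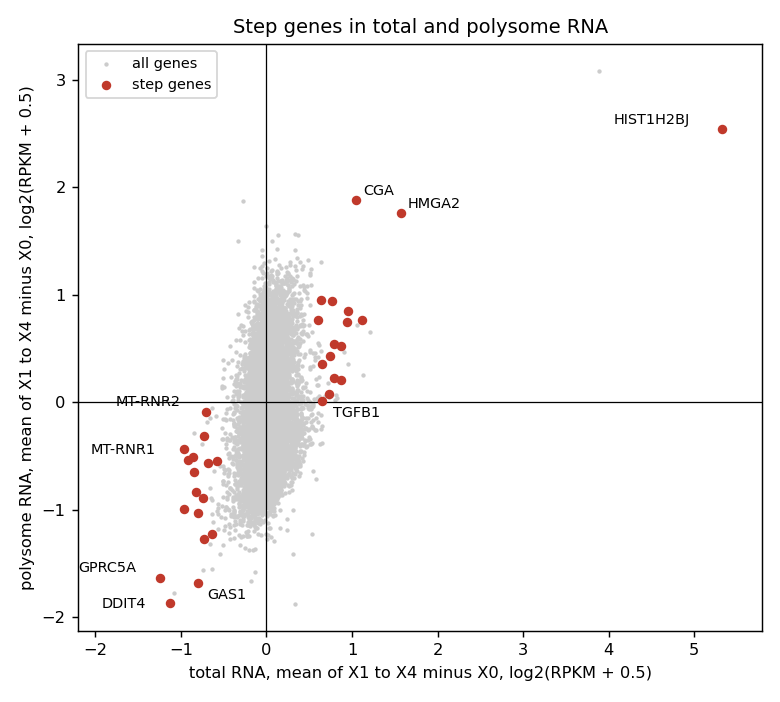
Mean of X1 to X4 minus X0 on the log2(RPKM + 0.5) scale in total RNA (x) and polysome RNA (y), with all genes in grey and the 34 step genes in red. Every step gene keeps its direction; MT-RNR2 and TGFB1 lie near 0 in polysome RNA.

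NIH3T3, a mouse fibroblast line, was carried through 5 levels with the same names in the series. By shared symbol, 31 of the 34 step genes are in its total RNA table, some of them, such as CGA and STMN3, listed at 0. LIN28B itself was at 0.0107, 0.0115, 0.0834 and 0.354 RPKM there at X1 to X4, against 0.0074 RPKM at X0. Values this near 0 do not show that the levels carry the same LIN28B step in NIH3T3. Of 17 above X0 in HEK293A, 3 lay above X0 at all 4 levels in NIH3T3 and 6 below, beside 27.1% and 44.1% of 9347 shared symbols. Of 14 below X0 in HEK293A, 4 lay below and 3 above. Some of these sides rest on values near 0. ARID3B, counted above, was at 0 RPKM at X0 and at most 0.0722 RPKM at X1 to X4. CACNA1H and CYP26A1, counted below, were at 0.0041 and 0.0677 RPKM at X0. HIST1H2BJ, counted above, and NR6A1, counted below, were at 0.432 and 0.577 RPKM at X0. HMGA2 was at 5.2, 3.77, 5.48 and 7.96 RPKM in NIH3T3 at X1 to X4, against 5.11 RPKM at X0, and so straddled X0. CAV1, CD44, MYOF and ETV5 lay below X0 in both lines. In NIH3T3 CD44 was at 7.66 to 9.65 RPKM at X1 to X4, against 14.9 RPKM at X0, and MYOF at 5.71 to 9.11 RPKM, against 17.1 RPKM at X0. A term for the difference between the lines was called for 10 of the 18 step genes that could be fitted in both, beside 26.0% of 6809 shared genes; the HEK293A side of that term is the contrast that chose the genes, so nothing is read from the count.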

How the data were processed

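Total RNA of HEK293A at X0 to X4 was read from the table of RPKM values deposited by the authors, which per the labels come from polyA-selected libraries. The submitters' processing notes name cutadapt and STAR, with hg19 for human and mm10 for mouse reads. How reads were counted, with which strand setting and against which gene models, is not given in those notes. The series design mentions 2 replicates per condition, whereas the table has a single column for each level, and no source says if that column pools them. Raw counts deposited by the authors for small RNA were used as they stand, with exact binomial (Clopper-Pearson) intervals at 95% and a limit of 3 counts for a count of 0, which cover counting error only.

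Values were taken as log2(RPKM + 0.5). The mean of X1 to X4 was compared with X0 in limma (moderated variances with a trend on the mean, Benjamini-Hochberg adjustment over 11342 genes, threshold 0.05), which treats the 4 levels as replicates; p-values measure only the spread between these libraries. Reads were recovered from the RPKM steps, within 0.02 of a whole number for 100% of genes in each of the 10 HEK293A libraries at X0 to X4, and used for depth and for edgeR and DESeq2 as alternatives. The limma and count fits were run on simulated data in which X1 to X4 were true replicates of one another. Those data held no graded change and no deviation of X0 alone, so they do not cover either. Named genes were LIN28B, LIN28A, HMGA2, the IGF2BP genes, every called gene, up to 15 step genes per direction at a mean of at least 5 RPKM, up to 4 members per list with a gap of at least 0.25, and the 2 genes either side of the gap threshold in each direction; other step genes are given so that every member is accounted for. A list member that this rule names is not reported here. Members and gene lists were chosen with earlier results of these data known. HEK293A and NIH3T3 were compared over shared symbols with a term for the difference between lines. RefSeq sequences are of GRCh38.p14, and no gene coordinates were taken from them for the hg19 files.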

Additional observations from a re-analysis of the deposited data

Results flagged for a closer look

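The difference between X1 to X4 and X0 was itself compared between HEK293A and NIH3T3 in limma over 6809 shared genes, and 10 step genes differed between the lines at an adjusted p under 0.05. All 10 were picked for a large difference in HEK293A, and 26.0% of the shared genes differed too. Higher in HEK293A than in NIH3T3, on the log2 scale, were the differences of HMGA2 by 1.49 (1.57 in HEK293A and 0.08 in NIH3T3, adjusted p = 0.0098), E2F5 by 1.28 (0.77 and -0.51, 0.00235), IGF2BP1 by 1.13 (0.88 and -0.26, 0.00892), RBMS1 by 1.11 (0.60 and -0.50, 0.0178) and TGFB1 by 0.57 (0.65 and 0.08, 0.0324). Lower in HEK293A than in NIH3T3 were those of GPRC5A at -1.82 (-1.25 in HEK293A and 0.57 in NIH3T3, adjusted p = 0.00645), GAS1 at -1.36 (-0.80 and 0.56, 0.00443), NPNT at -1.29 (-0.74 and 0.55, 0.00269), DDIT4 at -1.17 (-1.13 and 0.05, 0.0024) and MT-RNR1 at -0.76 (-0.96 and -0.20, 0.0478). No step gene, and not LIN28B, had a level among X1 to X4 that stood apart from the other levels by Dixon's test for 4 values.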

How the results depend on the processing

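Calls in total RNA numbered 3 in the reported fit and 2 to 3 with pseudocounts of 0.1 and 1, trimmed-mean centring, quantile normalization, a mean of at least 5 RPKM, no trend and edgeR. They numbered 104 with the linear term, which holds all 34 step genes, 167 with DESeq2, and between 0 (without X3) and 95 (without X4) with a level left out. In polysome RNA 0 calls became 3 with the linear term, 3 with DESeq2 and 0 (without X1) to 99 (without X2) with a level left out; the cause was not tested. Step genes above X0 numbered 172 at a gap of at least 0.25, 2 at a gap of at least 1 and 10 at a mean of at least 5 RPKM, and those below X0 114, 0 and 9, since those rules keep more or fewer genes by construction; with a level left out they ran between 17 and 35 above and 18 and 32 below, most without X1. At a mean of at least 5 RPKM fewer genes were tested, and 1609 lay below X0 at all levels, and 899 differed between HEK293A and NIH3T3, against 1767 of all. Among the named genes, calls were gained by 16 without X1, 30 without X2 and 25 without X4, and lost by HMGA2, CGA and MT-RNR1 without X3 and by MT-RNR1 after quantile normalization; their sign is fixed by how most were chosen and shows no stability. The linear term tests the difference by which the step genes were chosen, so its calling all 34 shows no stability either. X0 is a single library and could not be left out. Nothing here separates its own deviation from the absence of LIN28B. Depth limits genes such as CGA and RAMP1, with 57 reads each at X0. No paired analysis was possible because each level has 1 library and X0 has no partner for X1 to X4.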
